A study of Mus musculus with 15 samples.

Results

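A set of 10 transcription factor genes known from the making of fat cells were followed across 4 groups of perivascular fat: Ebf1, Ebf2, Ebf3, Cebpa, Cebpb, Cebpd, Nfia, Zfp423, Zfp516 and Irf4. They were chosen by symbol, as the rows of the deposited count table that map to these names, and all 10 of 10 were found among its 43352 genes and were among the 19645 tested. The tissue is the fat around the aorta of mice aged 11 weeks, taken from the abdomen (aPVAT) or the chest (tPVAT). The cKO mice had the genotype Prdm16flox,AdipoQCre+ and the control (Ctr) mice Prdm16flox, so both carried floxed Prdm16 and only the cKO mice carried Cre. There were 3 aPVAT cKO libraries (numbers 1, 3 and 4), 4 aPVAT control libraries, 4 tPVAT cKO libraries and 4 tPVAT control libraries, 15 in all. The Cre is driven by AdipoQ, a gene of adipocytes, so other cells of the tissue keep Prdm16. The labels give no sex and do not say that each sample is another animal. The p-values therefore cover the spread among these libraries, which may be partly technical.

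These factors act in sequence and in parallel when a precursor becomes a fat cell. In cultured mouse preadipocytes Cebpb and Cebpd are induced first and switch on Cebpa and Pparg, which then hold the adipocyte program in place. EBF factors act beside them: Ebf2 marks committed brown precursors and recruits Pparg to brown fat genes, and Nfia opens chromatin with it. Zfp423 marks committed preadipocytes and restrains the thermogenic program of white adipocytes, in part by blocking Ebf2, whereas Zfp516 and Irf4 act on thermogenic genes with the coregulators Prdm16 and Ppargc1a. Prdm16 is a coregulator that works on its target genes together with such factors, Cebpb among them.

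Values are CPM (reads of a gene scaled to a common library size) on library sizes scaled by TMM, a method that sets the typical gene to no difference between libraries. Total counts ranged from 37.8 to 68.7 M a library, and the lowest count of any of the 10 genes in a library was 425, for Cebpd. Prdm16 stood at 15.1, 14.7 and 18.3 CPM in aPVAT cKO 1, 3 and 4, against 26.8, 21.4, 23.3 and 23.4 CPM in aPVAT control 1 to 4. In the chest it stood at 22.4, 21.2, 22.2 and 23.8 CPM in tPVAT cKO, against 46.4, 41.1, 46.3 and 55.6 CPM in tPVAT controls. It fell in both depots (log2 fold change −0.57, SE 0.105, adjusted p = 0.00992 in aPVAT, and −1.08, SE 0.0970, adjusted p = 2.22e-06 in tPVAT). In aPVAT the adjusted p was 0.0692 when cKO 1 was left out, 0.0591 when cKO 3 was left out and 0.0740 in a fit of the abdominal libraries alone, so that call depends on them. Reads outside the floxed part, which the labels do not name, also count. The adipocyte gene Adipoq stood at 1558 and 1572 CPM in aPVAT cKO and control and at 1115 and 836 CPM in tPVAT cKO and control. Structural RNA made up 2.23% of aPVAT cKO 4 and 0.918% of aPVAT control 2, and at most 0.210% of any other library.

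More of the 10 genes differed between the depots than between the genotypes. Calls are from edgeR's quasi-likelihood test at an adjusted p under 0.05 unless another is named. Between cKO libraries 6 of 10 passed, against 52.6% of all genes: 2 were higher in aPVAT (Cebpd, Zfp423), against 27.2%, and 4 lower (Ebf2, Ebf3, Cebpb, Nfia), against 25.4%. Between controls the same 6 passed, against 56.6% of all genes, with the same 2 higher, against 29.3%, and the same 4 lower, against 27.3%. The aPVAT and tPVAT libraries did not overlap for 7 of the 10 in cKO, against 55.0% of all genes, of which 5 were lower in aPVAT, against 27.5%. In controls this held for 6, against 49.5% of all genes, of which 4 were lower, against 24.1%. The shares called among the 10 lay near those of all genes. The balance of directions depends on the scaling: with library totals in place of TMM, 6 were higher and 1 lower in aPVAT cKO than in tPVAT cKO (13596 and 1410 of all genes), and 6 were higher and 2 lower in aPVAT controls than in tPVAT controls (14618 and 1419 of all genes).

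Few of the 10 passed for cKO against control, and the shares called lay near those of all genes. In aPVAT 0 passed, against 1.53% of all genes (0.743% higher and 0.789% lower), with 2 at an unadjusted p under 0.05 (Cebpb and Irf4), against 12.4%, and 0 by DESeq2, against 3.41%. In tPVAT 0 were higher, against 5.44% of all genes, and 1 was lower, Ebf3, against 6.61%, for 12.0% of all genes in both directions. At an unadjusted p under 0.05 there were 4 in tPVAT (Ebf2, Ebf3, Cebpb and Nfia), against 26.0%, and DESeq2 called 1, against 16.2%. The cKO and control libraries did not overlap for 1 gene in aPVAT (Irf4, lower), against 9.56% of all genes in either direction and 5.80% lower, and for 2 in tPVAT (Ebf3 and Nfia, both lower), against 23.2% and 12.2%. The interaction, which asks whether the cKO effect differs between depots, called 0 of 10 against 0.784% of all genes (0.158% higher and 0.626% lower), with 1 (Ebf3) at an unadjusted p under 0.05, against 8.85%, and 0 by DESeq2, against 1.85%. The median log2 fold change of the 10 was −0.11 for cKO against control in aPVAT and −0.14 in tPVAT, where the median of all genes was −0.01 in each. It was −0.32 for aPVAT against tPVAT in cKO mice and −0.22 in controls, against 0.04 over all genes in each. Both depot comparisons share libraries with both genotype comparisons.

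**Figure D1:**
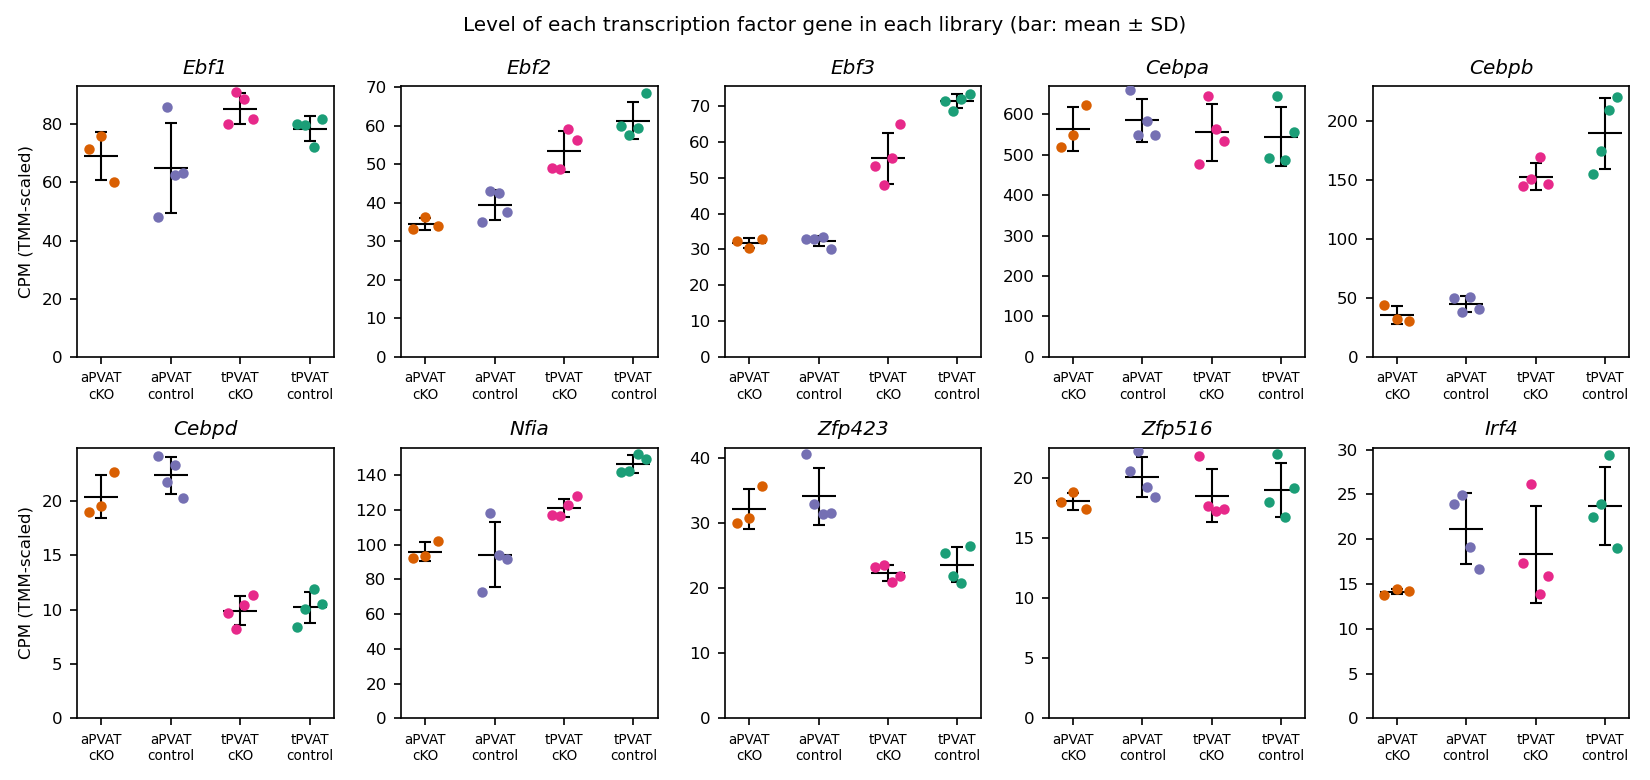
Level of each of the 10 genes in each library, in CPM on a linear axis from 0, with aPVAT cKO, aPVAT control, tPVAT cKO and tPVAT control from left to right; each point is 1 library and the bar is the mean ± SD. Points of Ebf2, Ebf3 and Cebpb lie lower in both aPVAT groups than in both tPVAT groups, and those of Cebpd and Zfp423 lie higher. Means of Nfia are lower in both aPVAT groups, but aPVAT control 2 (118.3 CPM) lies above tPVAT cKO 1 and 2 (117.1 and 116.5 CPM). Cebpa and Zfp516 lie at like heights in all 4 groups.

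Reads per kb of exon allow the 10 genes to be compared with each other. Cebpa was the highest in every group, at 214 ± 20.5, 222 ± 20.0, 211 ± 26.7 and 207 ± 27.9 CPM per kb in aPVAT cKO, aPVAT control, tPVAT cKO and tPVAT control (SD, n = 3, 4, 4 and 4), which put it above at least 98.8% of the genes tested. Cebpb came next and Nfia after it in every group. The ranges of Cebpa, Cebpb and Nfia did not overlap within a group. Below Nfia, the order in tPVAT controls was Ebf2, Ebf1, Ebf3, Irf4, Zfp423, Cebpd and Zfp516, and the neighbours Ebf2 and Ebf1, Ebf1 and Ebf3, Irf4 and Zfp423, and Cebpd and Zfp516 overlapped. In aPVAT controls the order below Nfia was Ebf1, Zfp423, Cebpd, Ebf2, Irf4, Ebf3 and Zfp516, with Ebf3 second to last at 3.50 ± 0.160 CPM per kb and each neighbour but Ebf3 and Zfp516 overlapping the next. Zfp516 was the lowest of the 10 in all 4 groups, between 2.18 and 2.43 CPM per kb.

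Ebf3 is a member of the early B cell factor family whose role in fat is less well described than that of Ebf2. It was the one gene of the 10 that passed for cKO against control, as lower and in tPVAT only. It stood at 32.3, 30.3 and 32.9 CPM in aPVAT cKO 1, 3 and 4, and at 32.8, 33.0, 33.4 and 30.1 CPM in aPVAT control 1 to 4. In the chest it stood at 53.2, 48.0, 55.4 and 65.1 CPM in tPVAT cKO 1 to 4, and at 71.5, 68.6, 72.0 and 73.4 CPM in tPVAT control 1 to 4. All 4 tPVAT cKO libraries lay below all 4 tPVAT controls, tPVAT cKO 4 closest to them, while the aPVAT groups overlapped. The fall in tPVAT was −0.37 on the log2 scale (SE 0.0769, adjusted p = 0.00521), and no left-out library ended the call (−0.45 to −0.30, adjusted p 0.000485 to 0.0212). In aPVAT the difference was −0.02 (95% interval −0.20 to 0.16, adjusted p = 0.937). The difference between the 2 effects was 0.34 (95% interval 0.10 to 0.58), which missed the threshold (adjusted p = 0.288) and passed it without tPVAT cKO 4 (0.43, adjusted p = 0.0484). Ebf3 was also lower in aPVAT than in tPVAT, by −0.80 in cKO libraries (SE 0.0848, adjusted p = 1.26e-06) and −1.14 in controls (SE 0.0778, adjusted p = 5.65e-09), a level 2.21-fold lower in aPVAT controls. In bulk tissue, fewer cells of a type and less RNA per cell cannot be told apart.

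Several marker lists had lower members in tPVAT cKO, as Ebf3 was, where 6.61% of all genes were lower and 5.44% higher. Of 12 markers of mural cells and smooth muscle 5 were lower in cKO and 0 higher, with a summed level of 2470 to 2671 CPM in tPVAT cKO and 2868 to 3516 CPM in tPVAT controls. Of 10 endothelial markers 3 were lower and 0 higher, with sums of 955 to 1020 CPM in cKO and 1073 to 1228 CPM in controls. Of 9 striated muscle genes 2 were lower and 0 higher, with sums of 73.0 to 182.9 CPM in cKO and 179.6 to 250.9 CPM in controls. Of 20 thermogenic adipocyte genes 6 were lower and 2 higher, with sums of 8181 to 9744 CPM in cKO and 12150 to 12790 CPM in controls. These 4 lists did not all separate the groups: the summed striated muscle level overlapped, and the other 3 did not. Of 20 mature adipocyte genes 9 were higher and 1 lower, with sums of 41410 to 44920 CPM in cKO and 36870 to 38840 CPM in controls. Of 16 progenitor and fibroblast markers 0 passed in either direction. The part of these lists in the Ebf3 result was not tested.

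Ebf2, the EBF member that marks brown precursors, followed the depot with TMM scaling. It stood at 33.2, 36.2 and 34.1 CPM in aPVAT cKO and at 35.0, 43.1, 42.4 and 37.5 CPM in aPVAT controls. It stood at 49.0, 48.7, 59.2 and 56.3 CPM in tPVAT cKO and at 59.8, 57.5, 59.5 and 68.5 CPM in tPVAT controls. Every aPVAT library lay below every tPVAT library, while cKO and control libraries overlapped within each depot. The depot difference was −0.63 in both genotypes (SE 0.0934, adjusted p = 4.27e-05 in cKO, and SE 0.0855, adjusted p = 1.18e-05 in controls). With library totals it turned to 0.03 in cKO (adjusted p = 0.773) and 0.11 in controls (adjusted p = 0.231), neither passing. For cKO against control, Ebf2 differed by −0.20 in aPVAT (95% interval −0.39 to 0.00, adjusted p = 0.404) and by −0.20 in tPVAT (95% interval −0.38 to −0.02, adjusted p = 0.144), and the tPVAT value passed with weights per library (adjusted p = 0.0459).

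Ebf1, which in mouse drives B cell identity and also promotes fat cell formation, had the widest spread of the EBF genes within 1 group. It stood at 71.3, 76.0 and 60.1 CPM in aPVAT cKO and at 48.2, 85.8, 62.7 and 63.3 CPM in aPVAT controls, where control 1 was lowest and control 2 highest. It stood at 80.2, 91.0, 88.7 and 81.6 CPM in tPVAT cKO and at 80.2, 79.8, 72.3 and 81.8 CPM in tPVAT controls. The cKO effect was 0.09 in aPVAT (95% interval −0.20 to 0.38) and 0.12 in tPVAT (95% interval −0.15 to 0.39), neither past the threshold (adjusted p = 0.823 and 0.598). For aPVAT against tPVAT it was −0.30 in cKO libraries (adjusted p = 0.0781), whose ranges did not overlap, and −0.27 in controls (adjusted p = 0.0811). The control value passed without aPVAT control 2 (−0.44, adjusted p = 0.00190) and with weights per library (adjusted p = 0.0158). The cKO value passed without aPVAT control 1 (adjusted p = 0.0252) or 2 (adjusted p = 0.0192), in a fit of the cKO libraries alone (adjusted p = 0.0175) and with weights per library (adjusted p = 0.0303). With library totals it turned to 0.35 in cKO (adjusted p = 0.0475) and 0.47 in controls (adjusted p = 0.00625), both passing as higher in aPVAT.

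Within the EBF family the make-up shifted with these changes. Of the reads per kb of the 4 EBF genes, Ebf3 held 21.6% ± 2.06 in aPVAT cKO and 21.7% ± 2.76 in aPVAT controls, and 26.3% ± 2.48 in tPVAT cKO and 31.1% ± 1.01 in tPVAT controls (SD, n = 3, 4, 4 and 4). Ebf1 held 44.1%, 40.3%, 38.5% and 32.3% in the same order of groups. The tPVAT cKO range of Ebf1, 35.0% to 42.6%, lay above the tPVAT control range of 30.7% to 33.8%, and the range of Ebf3, 23.8% to 29.5%, lay below the control range of 29.96% to 32.4%. Ebf4 held at most 3.29% in any group. A share can move because another member of the family moves.

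**Figure D2:**
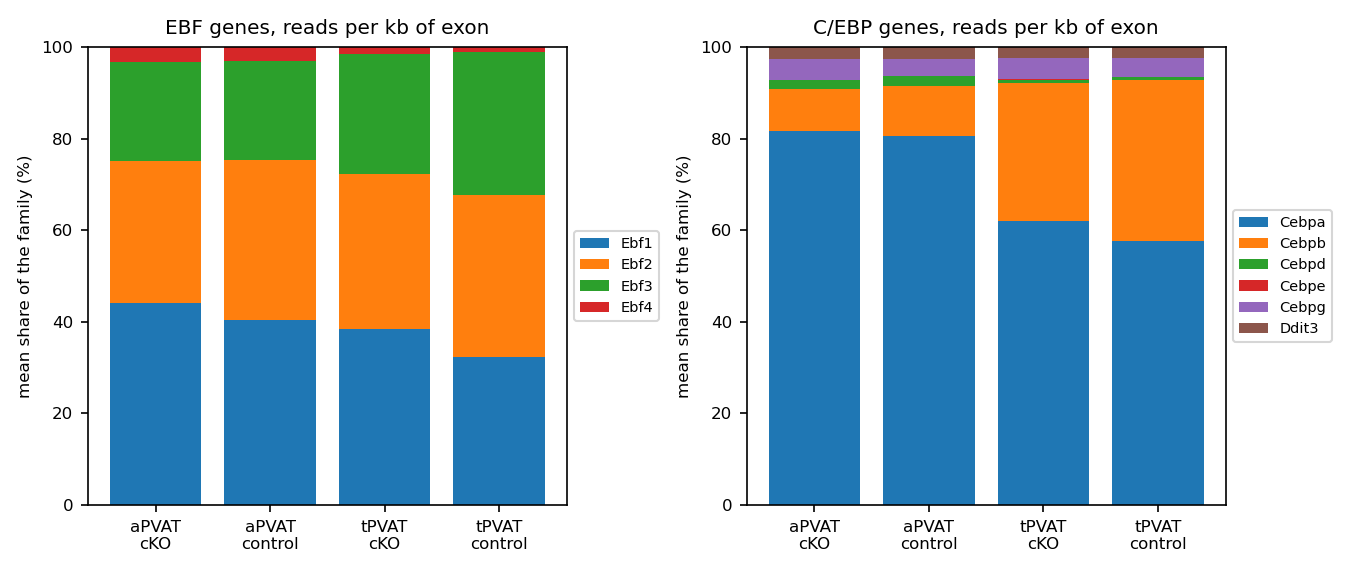
Mean share of each gene in the reads per kb of exon of its family, in percent of the family, for the EBF genes (left) and the C/EBP genes (right), with aPVAT cKO, aPVAT control, tPVAT cKO and tPVAT control from left to right in each. Cebpb takes 9.04% and 10.8% in aPVAT cKO and control against 30.04% and 35.1% in tPVAT cKO and control, and Ebf3 takes its highest share, 31.1%, in tPVAT controls.

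Cebpb had the largest depot difference of the 10 genes. It encodes an early factor of the adipogenic cascade that also binds Prdm16 in brown fat precursors. It stood at 44.0, 31.7 and 30.01 CPM in aPVAT cKO, at 50.01, 38.1, 50.6 and 40.6 CPM in aPVAT controls, at 144.4, 150.3, 169.5 and 146.8 CPM in tPVAT cKO, and at 154.7, 174.3, 208.8 and 219.9 CPM in tPVAT controls. The highest aPVAT library lay far below the lowest tPVAT library, while cKO and control ranges overlapped in both depots. Cebpb was 4.33-fold lower in aPVAT cKO than in tPVAT cKO (log2 −2.11, SE 0.157, adjusted p = 2.26e-08) and 4.23-fold lower in aPVAT controls than in tPVAT controls (−2.08, SE 0.140, adjusted p = 5.08e-09), a size that 2.82% and 3.67% of all genes exceeded in either direction. For cKO against control the values were −0.35 in aPVAT (95% interval −0.66 to −0.03, adjusted p = 0.338) and −0.31 in tPVAT (95% interval −0.60 to −0.02, adjusted p = 0.156), so both missed the threshold. Cebpb overlaps 312 exon bases of Tmem189 on the other strand, which differed by 0.22 between the depots of controls, the opposite direction.

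Cebpd, the partner of Cebpb early in the cascade, ran the other way. It stood at 19.0, 19.5 and 22.7 CPM in aPVAT cKO and at 24.1, 21.8, 23.3 and 20.3 CPM in aPVAT controls, against 9.67, 8.23, 10.4 and 11.4 CPM in tPVAT cKO and 8.41, 10.1, 11.9 and 10.5 CPM in tPVAT controls. Every aPVAT library lay above every tPVAT library, and the genotypes overlapped in each depot. The depot difference was 1.04 in cKO libraries (SE 0.119, adjusted p = 2.86e-06) and 1.13 in controls (SE 0.112, adjusted p = 4.28e-07). The cKO effect was −0.13 in aPVAT (95% interval −0.38 to 0.12) and −0.04 in tPVAT (95% interval −0.28 to 0.20). Cebpd shares 562 exon bases with Spidr on the other strand, which was also higher in aPVAT controls, at 9.36 CPM against 7.33 CPM in tPVAT controls (0.35, adjusted p = 0.00268). How far reads of Spidr fall in the Cebpd count was not tested, since no strand setting is given in the sources used here.

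Cebpa, which holds the mature fat cell state together with Pparg, did not pass in any comparison with TMM scaling. It stood at 518.7 to 623.4 CPM in aPVAT cKO, 547.7 to 660.7 CPM in aPVAT controls, 478.2 to 646.6 CPM in tPVAT cKO and 487.1 to 645.1 CPM in tPVAT controls, and all 4 ranges overlapped. The cKO effect was −0.06 in aPVAT (95% interval −0.30 to 0.19) and 0.03 in tPVAT (95% interval −0.20 to 0.26). The depot difference was 0.02 in cKO libraries (95% interval −0.23 to 0.27) and 0.10 in controls (95% interval −0.13 to 0.33). Scaled by library totals alone Cebpa was higher in aPVAT, by 0.67 in cKO libraries (adjusted p = 0.000203) and 0.85 in controls (adjusted p = 7.81e-06), where the median of all genes was 0.69 and 0.78. With Cebpb low in aPVAT, Cebpa made up 81.7% ± 2.61 and 80.6% ± 1.05 of the C/EBP reads per kb in aPVAT cKO and control, against 62.1% ± 2.92 and 57.6% ± 4.79 in tPVAT cKO and control.

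The start regions of Cebpb, Ebf3 and Nfia, lower in aPVAT, and of Zfp423, higher there, are shown because these are the genes that passed between depots and for which a region was found. Each covers 250 bases before and 50 bases from the annotated start, from RefSeq on GRCm38.p6: chr2:167688665-167688964 on the plus strand for Cebpb, chr7:137314396-137314695 on the minus strand for Ebf3, chr4:97581693-97581992 on the plus strand for Nfia, and chr8:87959546-87959845 on the minus strand for the upstream start of Zfp423. The Nfia region ends at 97581992, upstream of the GENCODE start of the counted gene at 97772734. It therefore lies outside the span of Nfia given further on. Capitals mark TTGCNNAA (a C/EBP motif), TGACG (part of a cAMP response element) and TATAAA, on either strand.
Cebpb: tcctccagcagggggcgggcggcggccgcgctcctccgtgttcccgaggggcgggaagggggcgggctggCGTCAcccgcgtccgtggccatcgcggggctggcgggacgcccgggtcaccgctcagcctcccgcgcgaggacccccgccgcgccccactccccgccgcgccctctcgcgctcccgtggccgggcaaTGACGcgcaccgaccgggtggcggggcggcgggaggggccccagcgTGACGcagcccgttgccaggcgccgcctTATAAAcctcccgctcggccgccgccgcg
Ebf3: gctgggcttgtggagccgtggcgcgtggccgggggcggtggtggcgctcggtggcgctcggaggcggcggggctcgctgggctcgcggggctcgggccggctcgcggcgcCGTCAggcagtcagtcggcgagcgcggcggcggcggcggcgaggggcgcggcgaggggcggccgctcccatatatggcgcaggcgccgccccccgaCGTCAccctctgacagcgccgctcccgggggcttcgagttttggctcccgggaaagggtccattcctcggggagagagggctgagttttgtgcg
Nfia: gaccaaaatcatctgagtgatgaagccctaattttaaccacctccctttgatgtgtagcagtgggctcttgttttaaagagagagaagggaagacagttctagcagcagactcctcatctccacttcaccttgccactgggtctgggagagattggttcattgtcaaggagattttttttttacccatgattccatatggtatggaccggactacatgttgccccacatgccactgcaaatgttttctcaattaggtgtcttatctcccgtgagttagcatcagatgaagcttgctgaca
Zfp423: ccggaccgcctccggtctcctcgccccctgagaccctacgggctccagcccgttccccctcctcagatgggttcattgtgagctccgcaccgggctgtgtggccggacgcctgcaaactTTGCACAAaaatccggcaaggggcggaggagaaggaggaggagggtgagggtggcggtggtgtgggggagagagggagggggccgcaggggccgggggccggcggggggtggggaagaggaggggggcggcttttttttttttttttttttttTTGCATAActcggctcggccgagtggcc
The Cebpb region holds TGACG 3 times and TATAAA 1 time, the Ebf3 region holds TGACG 2 times, and the Zfp423 region holds TTGCNNAA 2 times, at 131 bases before the start and 22 bases after it. The Nfia region and the second region of Zfp423 hold none of the 3. Of 32851 such regions of the genome 20.8% hold TGACG, 13.6% TATAAA and 10.8% TTGCNNAA. The palindromic EBF motif, in 0.904% of regions, was in none of the regions found for the members. A match is a description of the letters in the window. Start regions were found for 7 of the 10 genes, all but Ebf2, Cebpd and Zfp516. The base composition of the 4 regions also differed, at 80.7% G or C for Cebpb, 77.0% for Ebf3, 44.7% for Nfia and 65.7% for Zfp423, where 99.2%, 97.6%, 21.1% and 83.0% of regions have a lower content.

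Nfia, a nuclear factor I protein that primes brown fat enhancers, was lower in aPVAT. It stood at 92.3, 93.2 and 102.2 CPM in aPVAT cKO and at 72.6, 118.3, 93.8 and 91.8 CPM in aPVAT controls, where control 1 was the lowest library and control 2 the highest, as for Ebf1. It stood at 117.1, 116.5, 122.5 and 128.0 CPM in tPVAT cKO, all below the 141.7, 142.6, 151.9 and 149.1 CPM of tPVAT controls. The tPVAT difference of −0.27 (SE 0.104) missed the threshold in the fit of all libraries (adjusted p = 0.106). It passed in a fit of the 8 tPVAT libraries alone (adjusted p = 0.00410), with weights per library (adjusted p = 0.00677), without aPVAT control 1 (adjusted p = 0.0201) and without aPVAT control 2 (adjusted p = 0.0251). In aPVAT the cKO effect was 0.03 (95% interval −0.21 to 0.27), and the difference between the effects of the depots was 0.30 (95% interval −0.03 to 0.63, adjusted p = 0.624).

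For aPVAT against tPVAT, Nfia was lower by −0.34 in cKO libraries (SE 0.113, adjusted p = 0.0210) and by −0.64 in controls (SE 0.105, adjusted p = 8.55e-05). The call in cKO libraries ended when 1 of 3 libraries was left out: aPVAT cKO 1 (adjusted p = 0.0676), aPVAT cKO 3 (0.0647) or tPVAT cKO 4 (0.0528). With library totals it turned to 0.32 and passed as higher in aPVAT (adjusted p = 0.0179), while the control value turned to 0.11 without passing (adjusted p = 0.328). After the group means were taken out, Nfia and Ebf1 correlated over the 15 libraries (Pearson r of log2 CPM 0.71), the highest value among pairs of the 10 genes. The libraries aPVAT control 1 and 2 lie at the ends of both, and control 2 is rich in structural RNA (0.918%). Of the 4 NFI genes, Nfia held 12.3%, 11.8%, 13.8% and 15.6% of the reads per kb in aPVAT cKO, aPVAT control, tPVAT cKO and tPVAT control. Its relative Nfix fell in tPVAT, to 187.9 CPM in cKO, against 233.8 CPM in controls (−0.32, SE 0.0807, adjusted p = 0.0175), a call that ended when tPVAT cKO 1 (adjusted p = 0.0617) or control 2 (adjusted p = 0.0578) was left out and with library totals alone (adjusted p = 0.0870).

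Zfp423, the zinc finger protein that marks preadipocytes and holds back thermogenic genes, was higher in aPVAT. It stood at 30.1, 30.8 and 35.8 CPM in aPVAT cKO and at 40.7, 33.0, 31.5 and 31.6 CPM in aPVAT controls, against 23.3, 23.6, 20.9 and 21.8 CPM in tPVAT cKO and 25.4, 21.9, 20.8 and 26.5 CPM in tPVAT controls. Every aPVAT library lay above every tPVAT library. The difference was 0.52 in cKO libraries (SE 0.105, adjusted p = 0.000661) and 0.53 in controls (SE 0.0983, adjusted p = 0.000258), about 1.44-fold in each. The cKO effect was −0.09 in aPVAT (95% interval −0.31 to 0.14) and −0.08 in tPVAT (95% interval −0.29 to 0.13). Its relative Zfp521, which in mouse opposes fat cell formation by binding Ebf1, was likewise higher in aPVAT, at 19.3 CPM in aPVAT cKO against 9.71 CPM in tPVAT cKO, and at 21.2 CPM in aPVAT controls against 9.95 CPM in tPVAT controls (1.09, SE 0.104, adjusted p = 2.60e-07 in controls).

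Many markers of precursors and of blood cells were higher in aPVAT as well, where 27.2% of all genes were higher in cKO and 29.3% in controls. Of 16 markers of progenitors and fibroblasts 11 were higher and 0 lower in aPVAT cKO, with sums of 6420 to 8057 CPM, against 3339 to 4506 CPM in tPVAT cKO. In controls 11 were higher and 0 lower, with sums of 8089 to 10540 CPM, against 3650 to 4350 CPM in tPVAT controls. Of 12 markers of macrophages and dendritic cells 10 were higher and 0 lower in cKO, and 11 higher and 0 lower in controls. Of 12 markers of B cells and plasma cells 1 was higher and 0 lower in cKO, and 8 higher and 0 lower in controls. Of 10 endothelial markers 9 were higher and 0 lower in cKO, and 8 higher and 1 lower in controls. Of 9 striated muscle genes tested 6 were lower and 0 higher in cKO, and 8 lower and 0 higher in controls. The part of these lists in the depot differences of Cebpd, Zfp423 and the other members was not tested.

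Zfp516, a zinc finger protein that activates Ucp1, did not pass in any comparison with TMM scaling. It stood at 17.4 to 18.8 CPM in aPVAT cKO, 20.5, 22.2, 19.2 and 18.4 CPM in aPVAT controls, 21.8, 17.7, 17.3 and 17.4 CPM in tPVAT cKO, and 18.02, 22.0, 16.7 and 19.2 CPM in tPVAT controls. All 4 groups overlapped, and tPVAT cKO 1 stood apart from the other libraries of its group. The cKO effect was −0.15 in aPVAT (95% interval −0.37 to 0.06) and −0.04 in tPVAT (95% interval −0.24 to 0.17). The depot difference was −0.04 in cKO libraries (95% interval −0.25 to 0.18) and 0.08 in controls (95% interval −0.12 to 0.28), and with library totals alone it was 0.62 (adjusted p = 0.000134) and 0.82 (adjusted p = 2.77e-06), near the median of all genes.

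Irf4, an interferon regulatory factor that in mouse adipocytes drives lipolysis and, with Ppargc1a, thermogenesis, had the largest cKO effect of the 10 in aPVAT without passing. It stood at 13.8, 14.4 and 14.3 CPM in aPVAT cKO and at 24.0, 24.9, 19.1 and 16.7 CPM in aPVAT controls. It stood at 17.4, 26.2, 13.9 and 15.9 CPM in tPVAT cKO and at 22.5, 23.9, 29.4 and 19.0 CPM in tPVAT controls. All aPVAT cKO libraries lay below all aPVAT controls, while tPVAT cKO 2 lay above 3 of the 4 tPVAT controls. The aPVAT difference was −0.58 (SE 0.194, adjusted p = 0.196; DESeq2 adjusted p = 0.0706). The tPVAT difference was −0.37 (SE 0.179, adjusted p = 0.207), and without tPVAT cKO 2 it was −0.59 and passed (adjusted p = 0.0235). Between depots Irf4 differed by −0.38 in cKO libraries (95% interval −0.79 to 0.04) and by −0.16 in controls (95% interval −0.54 to 0.22). The cKO value passed without tPVAT cKO 3 (−0.49, adjusted p = 0.0496). The summed B cell and plasma cell markers stood at 115.9 to 199.9 CPM in aPVAT cKO and at 123.3 to 278.4 CPM in aPVAT controls. Those of macrophages and dendritic cells stood at 470.4 to 687.0 CPM in aPVAT cKO and at 666.9 to 897.4 CPM in aPVAT controls. For T cells the sums were 14.0 to 25.5 CPM and 19.0 to 44.1 CPM. In this order of lists the median aPVAT cKO effect was −0.42, −0.46 and −0.70, with 0 of 12, 0 of 12 and 0 of 10 passing. The part of these lists in the Irf4 values was not tested.

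**Figure D3:**
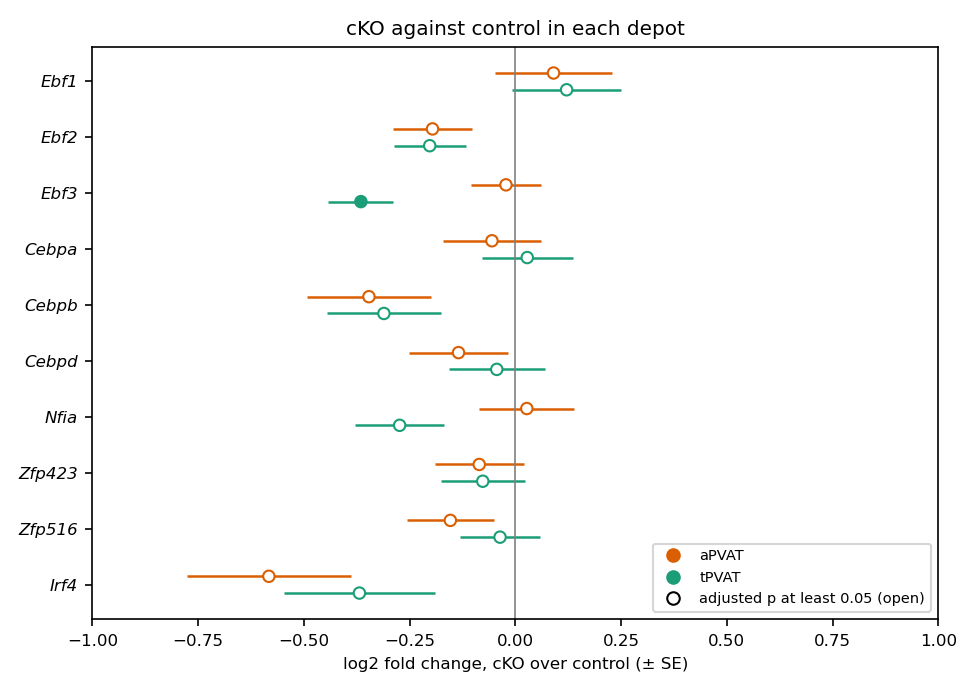
Log2 fold change of cKO over control with its SE for each of the 10 genes, in aPVAT (orange, upper point) and tPVAT (green, lower point); filled points have an adjusted p under 0.05. Only Ebf3 in tPVAT, at −0.37, is filled, and Irf4 in aPVAT, at −0.58 and open, lies farthest from 0 with the longest error bar.

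**Figure D4:**
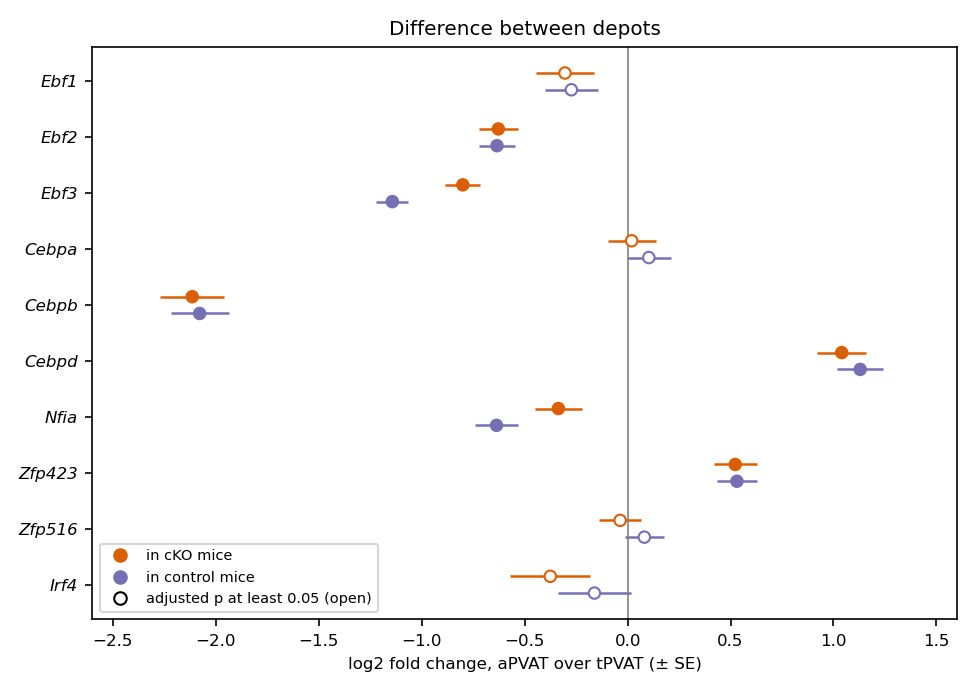
Log2 fold change of aPVAT over tPVAT with its SE for each of the 10 genes, in cKO mice (orange, upper point) and control mice (violet, lower point); filled points have an adjusted p under 0.05. Cebpb lies near −2.1 and Cebpd near 1.1 in both genotypes, and the pairs lie farthest apart for Ebf3 (−0.80 in cKO and −1.14 in controls).

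The depot differences depend on how libraries are scaled. The share of mitochondrial genes in a library was 13.5% ± 0.308 and 14.4% ± 1.23 for aPVAT cKO and control, against 29.9% ± 2.38 and 34.6% ± 1.28 for tPVAT cKO and control (SD, n = 3, 4, 4 and 4). With library totals in place of TMM the median of all genes was 0.69 higher in aPVAT in cKO mice and 0.78 higher in controls. On that scale the control comparison kept Cebpb (−1.33) and Ebf3 (−0.40) lower and Cebpd (1.88) and Zfp423 (1.27) higher, while Ebf2 (0.11) and Nfia (0.11) turned sign without passing. Ebf1, Irf4 (0.59, adjusted p = 0.00986), Cebpa and Zfp516 passed as higher. In cKO mice Cebpb (−1.46) stayed lower and Cebpd (1.70) and Zfp423 (1.17) higher, Ebf2 (0.03) turned sign without passing, and Ebf1, Nfia, Cebpa and Zfp516 passed as higher. Relative to the median of all genes the control values were −2.12 for Cebpb, −1.18 for Ebf3, −0.67 for Ebf2, −0.67 for Nfia, −0.31 for Ebf1, −0.20 for Irf4, 1.09 for Cebpd and 0.49 for Zfp423. Taking out the median removes a shift common to all genes, as TMM does, so these values are no separate check of the directions. In cKO mice Ebf3 was −0.14 with library totals and lost its call (adjusted p = 0.0690), and −0.84 relative to the median.

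For cKO against control, 5.44% of all genes were higher and 6.61% lower in tPVAT, and 1.53% passed in aPVAT. Of 17 relatives of the same families 1 (Nfix) was lower and 0 higher in tPVAT, and 0 passed in aPVAT. In aPVAT 0 of 20 genes of the adipogenic cascade passed too. In tPVAT 1 of those 20 was higher and 0 lower. It was Stat5b, a mediator of growth hormone signals, at 101.4 ± 12.9 CPM in tPVAT cKO against 70.5 ± 2.18 CPM in controls (0.52, SE 0.0888, adjusted p = 0.00107), and the effect differed from that in aPVAT (interaction −0.71, SE 0.131, adjusted p = 0.0136). With aPVAT cKO 1 left out the interaction missed the threshold (adjusted p = 0.0551). Pparg, the master factor of fat cells, stood at 142.9 and 140.3 CPM in aPVAT cKO and control and at 199.5 and 205.9 CPM in tPVAT cKO and control, and its cKO effect was 0.03 in aPVAT and −0.05 in tPVAT (adjusted p = 0.941 and 0.815).

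Of 20 genes listed here as brakes on adipogenesis, 1 was higher and 2 were lower in tPVAT cKO, against 5.44% and 6.61% of all genes. The roles of the listed genes were not tested. In aPVAT 0 passed, against 1.53% of all genes. Nrip1, a corepressor of brown fat genes, stood at 56.5 CPM in tPVAT cKO against 37.6 CPM in controls (0.59, adjusted p = 0.00816). Hes1, a target of Notch signals, was lower (−0.35, adjusted p = 0.0180), a call that ended when tPVAT cKO 1 (adjusted p = 0.0614), control 1 (0.0606) or control 2 (0.0649) was left out and with library totals. Trib3, which inhibits Akt, was lower (−0.34, adjusted p = 0.0473), and that call was lost for 12 of the 15 libraries left out in turn (adjusted p up to 0.145).

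Of 19 coregulators of brown and beige adipocytes tested, Prdm16 included, 0 were higher and 4 lower in aPVAT cKO, against 0.743% and 0.789% of all genes. In tPVAT cKO 2 were higher and 5 lower, against 5.44% and 6.61% of all genes. Ppargc1b, a coactivator of mitochondrial genes, was lower in both depots, at 4.96 CPM in aPVAT cKO against 9.93 CPM in controls (−0.999, adjusted p = 0.00148) and at 31.6 CPM in tPVAT cKO against 51.8 CPM in controls (−0.71, adjusted p = 0.00151). Ppara, the receptor that drives fatty acid oxidation, was lower in aPVAT (−0.83, adjusted p = 0.00215) and in tPVAT (−0.41, adjusted p = 0.0256), calls that ended in a fit of the aPVAT libraries alone (adjusted p = 0.0933) and with library totals in tPVAT (adjusted p = 0.0712). The nuclear receptor Esrrg was lower in aPVAT (−0.86, adjusted p = 0.0166), and Hlx, a homeobox factor of brown fat genes, was lower in tPVAT (−0.53, adjusted p = 0.00822), as was Foxc2 (−0.39, adjusted p = 0.0283). The homeobox gene Lhx8 was among those higher in tPVAT cKO (0.52, adjusted p = 0.0484). In tPVAT the calls of Ppara and Foxc2 were each lost for 5 of 15 left-out libraries and that of Lhx8 for 10 (adjusted p up to 0.0836, 0.0965 and 0.133), and that of Esrrg in aPVAT was lost without aPVAT cKO 1 (adjusted p = 0.120) or 3 (adjusted p = 0.0892), in a fit of the aPVAT libraries alone (adjusted p = 0.117), with weights per library (adjusted p = 0.0890) and with the number as a random animal effect (adjusted p = 0.0587). The Foxc2 call also ended with library totals (adjusted p = 0.126), and that of Lhx8 without the low-count filter (adjusted p = 0.0821).

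Between the depots of control mice many members of the same lists passed, as did 56.6% of all genes (29.3% higher and 27.3% lower in aPVAT). Of the 17 relatives 10 were higher and 1 lower in aPVAT. The higher ones included Irf8 at 14.5 CPM in aPVAT against 4.40 CPM in tPVAT and Irf7 at 28.0 CPM in aPVAT against 9.07 CPM in tPVAT (1.72 and 1.63), genes of immune cells, and the lower one was Cebpg (−0.54), a C/EBP protein without an activation domain, which was 0.21 higher with library totals. Of the 20 cascade genes 3 were higher (Rxra 0.61, Klf5 1.19, Egr2 1.14) and 8 lower, among them Pparg (−0.55), Med1 (−0.65) and Ncoa1 (−0.56), which had positive values with library totals (0.19, 0.09 and 0.19). Of the 20 genes listed as brakes on adipogenesis 10 were higher, among them Nr2f2 (1.003), Tcf7l2 (0.67), Gata3 (1.19) and Gata2 (0.68). In the same list 2 were lower, Klf3 (−0.24) and Rb1 (−0.52), which had positive values with library totals (0.51 and 0.23). Of the 19 coregulators 2 were higher (Plac8 2.14, Foxc2 0.52) and 10 lower, with Esrrg (−2.57), Ppargc1b (−2.38), Ppara (−2.20) and Esrra (−1.64) leading by p. Of 20 thermogenic adipocyte genes 19 were lower and 1 higher.

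The genes whose levels were most like those of each factor, by Pearson correlation of log2 CPM over the 15 libraries among 12136 genes, give the pattern another form. Mpzl2 (r = 0.99), Mrps9 and Tecpr1 followed Ebf3: Mpzl2 stood at 16.8 and 17.9 CPM in aPVAT cKO and control and at 45.5 and 71.2 CPM in tPVAT cKO and control. Pfkl (r = 0.99), Gpi1 and Eno1b, enzymes of glycolysis, followed Cebpb, and Pfkl stood at 88.0 and 125.0 CPM in aPVAT cKO and control and at 445.2 and 552.7 CPM in tPVAT cKO and control. Rgs7 (r = 0.98), Slc4a4 and Pogk followed Ebf2, Tmem56 (r = 0.97), Pum2 and Ccser2 followed Ebf1, and Inpp1 (r = 0.97), Nrp1 and Nadk2 followed Nfia. Prkd2 (r = 0.98), Cbx7 and Jade2 followed Cebpd, and Pdgfc (r = 0.97), Aff1 and Smad1 followed Zfp423. For Cebpa (Sar1a, Stau1, Saal1), Zfp516 (Nkd2, Meox1, Col20a1) and Irf4 (Garem1, Flnc, Angptl4) the closest genes reached only r = 0.79, 0.74 and 0.76. The libraries share a depot and a genotype in groups, so the points of each correlation share the same 4 group means.

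The 10 genes differ in build. On GRCm38 the 3 C/EBP genes are single exons of 1504 to 3746 bases: Cebpa (ENSMUSG00000034957) at chromosome 7, 35119293 to 35121928, Cebpb (ENSMUSG00000056501) at chromosome 2, 167688915 to 167690418, and Cebpd (ENSMUSG00000071637) at chromosome 16, 15887286 to 15891031. Ebf1 (ENSMUSG00000057098) spans 390.8 kb of chromosome 11, Nfia (ENSMUSG00000028565) 346.1 kb of chromosome 4, Zfp423 (ENSMUSG00000045333) 297.8 kb of chromosome 8, Ebf2 (ENSMUSG00000022053) 197.6 kb of chromosome 14, and Ebf3 (ENSMUSG00000010476) 120.8 kb of chromosome 7, from 137193673 to 137314445. Zfp516 (ENSMUSG00000058881) spans 94.7 kb of chromosome 18 and Irf4 (ENSMUSG00000021356) 17.8 kb of chromosome 13. Among the genes that passed between depots, the single-exon Cebpb was lower in aPVAT and the single-exon Cebpd higher. Of the long genes that passed, Ebf2, Ebf3 and Nfia were lower in aPVAT and Zfp423 was higher. The part of gene build in these differences was not tested. Ebf2 shares 424 exon bases with Gm10860 and Ebf3 355 with Gm45278 on the other strand; Gm10860 had 5.60 raw counts a library on average and Gm45278 has no value here.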

How the data were processed

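RNA from perivascular fat was sequenced after poly(A) selection with a stranded kit, per the labels' protocols. The deposited file holds whole-number counts, not normalized, for 43352 Ensembl genes in 15 libraries. Tools in the submitters' processing notes are Salmon, Subread and DESeq2 1.42.1, with the build mm10; which of them made the counts, and with which strand setting, is not given in the sources used here. Totals were 37.8 to 68.7 M counts a library. Symbols and positions came from GENCODE M21 on GRCm38, which matched 98% of the identifiers.

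The counts were analysed with edgeR 4.0.16 in R 4.3.3: filterByExpr with a minimum count of 10 (19645 genes, 99.98% of the counts), TMM, 1 mean for each of 4 groups over 15 libraries, and quasi-likelihood F tests with Benjamini-Hochberg adjustment over all genes at a threshold of 0.05. The SE is the log2 fold change divided by the root of F, and 95% intervals use the t distribution of that test. CPM per kb divides by merged exon length. Alternatives were RLE scaling, library totals (chosen after seeing the data), no filter, only the groups compared, replicate blocks, library weights (limma 3.58.1), DESeq2 1.42.0, no mitochondrial genes, and libraries left out. The fit was tested on simulated counts. No pair of libraries agreed within sampling noise. Named genes are the 10 members, Prdm16, up to 4 passing genes of a list with the smallest p, all of a count of 5 or fewer, the 3 most correlated genes, and a few values chosen after they were seen (Adipoq, Pparg). Some genes of the lists are not reported here by name. The members and lists were chosen with earlier results of these data known. The aPVAT cKO sample 2 was not analysed here.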

Additional observations from a re-analysis of the deposited data

Results flagged for a closer look

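Zfp516 in tPVAT cKO 1 stood apart from the other libraries of its group: 21.8 CPM, against 17.7, 17.3 and 17.4 CPM in tPVAT cKO 2 to 4. The gap to its neighbour made up 0.905 of the range of the group on the log2 scale, above the critical value of Dixon's test for 4 samples. This was 1 of 30 such tests of the members, and chance flags about 1 in 20 groups.

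The cKO effect on Stat5b differed between depots: it was −0.18 on the log2 scale in aPVAT and 0.52 in tPVAT, an interaction of −0.71 (SE 0.131, edgeR adjusted p = 0.0136). Without aPVAT cKO 1 the interaction was −0.67 and missed the threshold (adjusted p = 0.0551).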

How the results depend on the processing

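With 3 or 4 libraries a group, small effects can be missed, and the strand setting and the cells behind a bulk count are not known here. Over the members' results, the calls made with all libraries were mostly of depot differences. They kept their direction and side of the threshold in 192 of 195 repeats that left out 1 library. Under other settings they did so in 125 of 130 repeats. The repeats that did not were all with library totals: Ebf2 and Nfia between depots in both genotypes, and Ebf3 between depots in cKO. In many repeats the library left out was in neither group compared. Among results not called, 16 repeats with 1 library left out reversed in sign, 8 kept their sign and came to pass, and 426 did neither. For other settings these numbers were 13, 12 and 272. Members passing for cKO against control in tPVAT numbered 1 with all libraries, 2 with only the tPVAT libraries, 3 with library weights, 2 without aPVAT cKO 4 and aPVAT control 2 (those rich in structural RNA), and 1 to 2 with 1 library left out. The interaction count ranged from 0 to 1 with 1 library left out. Over all genes, 3726 passed in tPVAT with only the groups compared and 4080 with weights, against 2367, and 1708 to 3273 with 1 library left out. In aPVAT 604 passed with DESeq2 and 92 with only the groups compared, against 301, and 161 (without aPVAT cKO 1) to 398 with 1 left out. The interaction gave 350 with DESeq2, against 154. The cause of these shifts was not tested.

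The labels share numbers across groups but do not say that a shared number is a shared animal, so the numbers were not taken to pair samples. Deviations of same-number samples from the 2 depots of a genotype correlated weakly (r −0.03 to 0.165). Between cKO and control samples, which cannot be the same animal, r was −0.22 to 0.17. Such correlations cannot show whether samples share an animal. With the replicate block 1 member passed in tPVAT and 0 in aPVAT for cKO against control, 7 and 6 between depots in controls and cKO, and 0 in the interaction. Over all genes these counts were 2392, 312, 11004, 10047 and 160. With the number as a random animal effect (correlation 0.0217) they were 1, 0, 6, 6 and 0. The added call was Ebf1 in controls (−0.30, adjusted p = 0.0461).

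Reversed values with library totals, for aPVAT against tPVAT, were 0.47 for Ebf1, 0.11 for Ebf2, 0.11 for Nfia, 0.59 for Irf4, 0.21 for Cebpg, 0.0918 for Med1, 0.19 for Ncoa1, 0.19 for Pparg, 0.23 for Rb1 and 0.51 for Klf3 in controls. In cKO they were 0.35 for Ebf1, 0.0302 for Ebf2, 0.32 for Nfia, 0.62 for Zfp516, 0.26 for Irf4 and 0.17 for Prdm16. Of these, Ebf1, Irf4, Cebpg, Ncoa1 and Klf3 in controls and Ebf1, Nfia and Zfp516 in cKO passed as higher. TMM sets the typical gene to no difference between libraries, and library totals do not. For cKO against control in tPVAT the reversed values with library totals were 0.0276 for Cebpd, 0.000237 for Zfp423 and 0.0373 for Zfp516. Other reversals ended at values near 0. With weights these were 0.0135 for Zfp516 in tPVAT, 0.00781 for Ebf3 in aPVAT and 0.00514 for the Irf4 interaction. That interaction was −0.21 without weights. With the replicate block the value was 0.000602 for Zfp516 between depots in cKO. Without the 2 libraries rich in structural RNA it was −0.0591 for Cebpa between depots in cKO. With 1 library left out, the cKO effect in tPVAT ranged from −0.0519 to 0.12 for Cebpa, −0.12 to 0.0436 for Zfp516 and −0.13 to 0.0372 for Cebpd. In aPVAT it ranged from −0.0291 to 0.25 for Ebf1, −0.14 to 0.00768 for Cebpa, −0.0792 to 0.16 for Nfia, −0.17 to 0.00902 for Zfp423 and −0.0540 to 0.0107 for Ebf3. Between depots in cKO it ranged from −0.0594 to 0.10 for Cebpa and −0.0689 to 0.0511 for Zfp516, and the Irf4 interaction from −0.33 to 0.0295.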
